A study of Arabidopsis thaliana with 42 samples.

Results

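The response to spermidine was measured in Arabidopsis thaliana seedlings of the genotype mtn1-1mtn2-5, with 3 libraries from seedlings on medium with 100 µM spermidine and 3 from seedlings on mock medium. These 6 libraries were chosen by their labels alone from the 42 of the series. Each library came from pooled whole seedlings of the Col-0 background aged 14 days. Set beside them were 6 libraries of mtn1-1mtn2-1 seedlings and 6 of wild-type (WT) seedlings, again 3 on spermidine and 3 on mock medium for each genotype. All 18 shared reduced-strength MS medium with agarose and sucrose, the same growth temperature and continuous light, and the labels name no further allele or agent. Either of 2 providers made the polyA-selected libraries, and the labels do not say which made each one. The labels do not say whether replicates came from separate cultures, so every p-value here measures only the spread between these samples, which may be technical.

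MTN1 (AT4G38800) and MTN2 (AT4G34840) encode methylthioadenosine nucleosidases, enzymes that open methylthioadenosine, a sulfur-containing by-product. Methylthioadenosine is released when the aminopropyl group of decarboxylated S-adenosylmethionine is used to build spermidine, spermine and thermospermine, and also in ethylene and nicotianamine synthesis. Salvage returns its sulfur to methionine. Plants take up spermidine from the medium, oxidise it with polyamine oxidases and copper amine oxidases, and tie its synthesis to S-adenosylmethionine decarboxylase.

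The 6 libraries held 134.1 to 159.4 M counts, or about 40.3 to 47.9 M sequenced fragments if 3.33 count units are read as 1 fragment. Levels are given as CPM (each count as a share of its library's TMM-scaled total, the usual unit for comparing a gene between libraries), in the order of replicates 1, 2 and 3. MTN1 stood at 4.37, 4.84 and 4.61 CPM on spermidine and at 4.46, 20.7 and 4.89 CPM on mock medium. In WT it stood at 104, 109 and 108 CPM on spermidine and 104, 100 and 106 CPM on mock medium. The mutant was thus low in 5 of its 6 libraries, and mock replicate 2 stood apart. MTN2 stood at 7.92, 7.66 and 8.06 CPM on spermidine and 9.19, 8.86 and 7.97 CPM on mock medium, so its RNA was present in the libraries labelled mtn1-1mtn2-5. Its WT means were 8.18 CPM on spermidine and 7.03 CPM on mock medium. In mtn1-1mtn2-1 it averaged 0.0679 CPM on spermidine and 0.118 CPM on mock medium. Neither gene passed the test between the 2 media in mtn1-1mtn2-5 (log2 fold change -1.12 with SE 0.40 and edgeR adjusted p 0.127 for MTN1, which became -0.02 without mock replicate 2, and -0.14, SE 0.09, adjusted p 0.462 for MTN2). MTN1 passed only where mock replicate 1 was left out (adjusted p 0.0292).

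Mock replicate 2 also held RNA of other genes that were present in WT and at or near 0 in the other 5 mtn1-1mtn2-5 libraries. The levels in mtn1-1mtn2-1 were not used to choose these genes. Of 93 genes with at most 3 fragments in each of the other 5 mtn1-1mtn2-5 libraries and at least 50 counts in every WT library, the median gene stood in mock replicate 2 at 16.4% of its WT mock level (quartiles 11.5% and 20%). All but 3 of the 93 were above 0 there. The part that mixing of material or libraries has in this was not tested. Of 43 genes with the opposite pattern, at most 3 fragments in each WT library and at least 50 counts in each of the other 5 mutant libraries, the median gene stood in mock replicate 2 at 87.8% of the other 2 mock libraries (quartiles 75.5% and 95.1%). With all 6 libraries 11 of the 93 genes were called lower on spermidine by edgeR, a count that the choice of the genes bears on. The plant thionin gene AT1G66100, named after its values were seen and outside the 93, had 0.05, 0.102 and 0.129 CPM on spermidine against 0, 28.4 and 0 CPM on mock medium. It stood at 69.6 to 157 CPM in the 6 mtn1-1mtn2-1 libraries. All results were also computed without mock replicate 2, and a call that was lost there is said to be.

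Spermidine changed 1248 of 25201 tested genes in mtn1-1mtn2-5 at an edgeR adjusted p under 0.05 (4.95%), of which 469 were higher (1.86%) and 779 lower (3.09%) than on mock medium. With limma on log2(TPM + 1) the split was nearer to even, with 727 of 1497 called genes higher. At least 2-fold changes in the edgeR fit made up 56 of the rises and 188 of the falls. The median log2 fold change was 0.485 among the rises and -0.656 among the falls, against -0.0001 over all genes tested. Without mock replicate 2 the count was 485 of 25636 genes (1.89%), with 192 higher (0.749%) and 293 lower (1.14%). Calls in the same direction with and without this library were made for 464 genes (1.84%), 173 higher and 291 lower. Without it 783 calls were lost, 20 were gained and 1 turned to the opposite direction. This was AT2G11240, named after its values were seen, with 0.05, 0.276 and 0.214 CPM on spermidine and 0.0269, 33.4 and 0.021 CPM on mock medium. Of the 1248 genes, 6 had the opposite sign without this library, among them AT1G66100 (log2 fold change -6.63, and 6.86 without it). Other libraries also moved the count, to 338 without spermidine replicate 1, 622 without spermidine replicate 2, 550 without spermidine replicate 3 and 621 without mock replicate 3. In bulk seedlings, fewer cells of a type and less RNA per cell cannot be told apart for any of these genes.

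**Figure D1:**
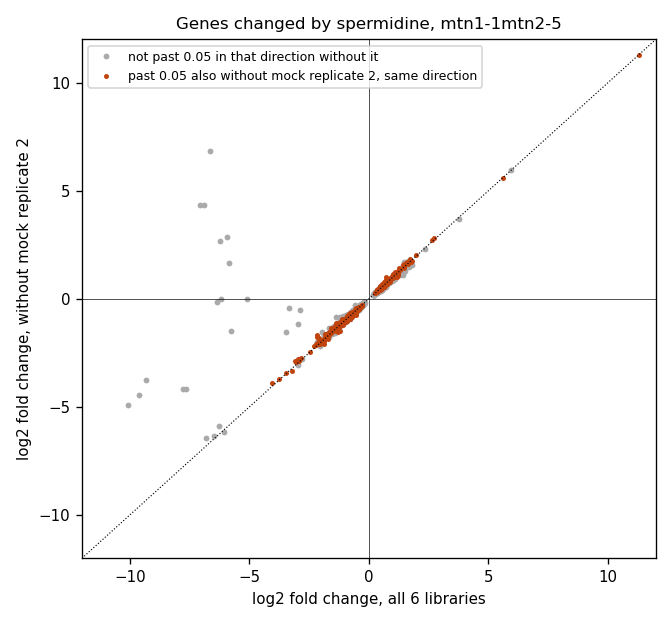
Each point is 1 of the 1248 genes called with all 6 libraries, with its log2 fold change (spermidine over mock medium) from all 6 libraries on the horizontal axis and without mock replicate 2 on the vertical axis. The 464 genes called in the same direction both ways lie close to the dotted line of equal values, and 6 grey points lie in the quadrants of opposite sign.

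Several genes of the circadian clock rose on spermidine. Of 14 genes of the clock list 4 rose and 0 fell, against rises in 1.86% of all genes tested, and all 4 rose also without mock replicate 2. Its median log2 fold change was 0.27 (0.37 without that library), and 13 of the 14 values were above 0. This list and those below were chosen with earlier results of these data known, so their counts are descriptions only. The risers were PRR9 (AT2G46790) and PRR7 (AT5G02810), pseudo-response regulators that repress the morning genes of the oscillator, LNK1 (AT5G64170), a co-activator of clock-controlled transcription, and GI (AT1G22770), a large evening-phased protein of the clock and of photoperiodic flowering.

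PRR9 stood at 14.6, 10.4 and 10.2 CPM on spermidine and 1.75, 2.06 and 1.58 CPM on mock medium. It was 6.53-fold higher on spermidine and the groups did not overlap, as they did not for 28.6% of all genes tested (log2 fold change 2.71 with SE 0.26 and adjusted p 0.000161; 2.82 and 0.000886 without mock replicate 2; 4.76e-24 to 0.00598 over 15 alternatives). LNK1 stood at 73.3, 58.0 and 57.8 CPM on spermidine and 19.9, 23.6 and 18.9 CPM on mock medium (log2 fold change 1.60 with SE 0.16 and adjusted p 0.000161, up to 0.00731 over the alternatives). GI stood at 53.0, 51.9 and 45.4 CPM on spermidine and 16.7, 24.6 and 20.5 CPM on mock medium (log2 fold change 1.28 with SE 0.15 and adjusted p 0.000506, up to 0.012). For both genes every spermidine library lay above every mock library, and for GI mock replicate 2 was the highest of its group. PRR7 stood at 121, 114 and 102 CPM on spermidine and 52.8, 80.1 and 70.3 CPM on mock medium (log2 fold change 0.73 with SE 0.17 and adjusted p 0.0252), again without overlap. Its call was lost in 4 of the 6 fits that leave out 1 library, those without mock replicates 1 or 3 or spermidine replicates 1 or 2 (adjusted p up to 0.11). The morning gene CCA1 (AT2G46830), a Myb-type repressor, had 186, 151 and 167 CPM on spermidine and 118, 96.1 and 108 CPM on mock medium. It did not pass with edgeR (log2 fold change 0.65 with SE 0.18 and adjusted p 0.0571) but did with DESeq2 (0.00713, with 0.00713 to 0.204 over the alternatives). Only TOC1 (AT5G61380), an evening repressor, had a value below 0 (log2 fold change -0.14, adjusted p 0.481). The labels give no time of harvest, so the medium and the hour at which seedlings were collected cannot be told apart for these genes.

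A pair of B-box genes were among the 10 largest rises. BBX18 (AT2G21320), a B-box zinc finger protein, stood at 19.1, 15.9 and 20.2 CPM on spermidine and 6.27, 4.73 and 5.14 CPM on mock medium (log2 fold change 1.78 with SE 0.17 and adjusted p 0.000161). BBX29 (AT5G54470), of the same family, stood at 4.32, 3.81 and 4.14 CPM on spermidine and 1.06, 1.1 and 1.37 CPM on mock medium (log2 fold change 1.80 with SE 0.18 and adjusted p 0.000161). CDF3 (AT3G47500), a cycling DOF factor that acts in flowering-time control, stood at 65.7, 60.1 and 58.0 CPM on spermidine and 26.5, 29.6 and 25.5 CPM on mock medium (log2 fold change 1.17 with SE 0.12 and adjusted p 0.000169). In all of them the groups were far apart relative to their spread, and the calls of BBX18 and BBX29 held in each of the 15 alternatives. Named after their values were seen, the B-box genes BBX28 (AT4G27310, log2 fold change 1.09, adjusted p 0.00168) and STH (AT2G31380, 0.85, 0.00166) and the light-stress gene ELIP1 (AT3G22840, 1.45, 0.00854) rose as well, with and without mock replicate 2.

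The sequences upstream of PRR9, the clock gene with the largest rise, and of AT5G15950, an adenosylmethionine decarboxylase gene with the largest rise of the polyamine genes, are shown because both hold a G-box (CACGTG), a site read by light-regulated transcription factors. Both are the 300 bases before the annotated gene start in RefSeq (build TAIR10.1), chr2:19232307-19232606 (plus strand) and chr5:5205569-5205868 (plus strand), printed 5′ to 3′ with the G-boxes in capitals, and neither overlaps another annotated gene.
PRR9: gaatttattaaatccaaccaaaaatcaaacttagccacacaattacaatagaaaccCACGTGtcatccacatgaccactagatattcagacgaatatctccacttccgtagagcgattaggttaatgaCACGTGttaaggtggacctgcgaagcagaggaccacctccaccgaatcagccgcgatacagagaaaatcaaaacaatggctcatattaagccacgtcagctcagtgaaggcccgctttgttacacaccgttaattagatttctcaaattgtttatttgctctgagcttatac
AT5G15950: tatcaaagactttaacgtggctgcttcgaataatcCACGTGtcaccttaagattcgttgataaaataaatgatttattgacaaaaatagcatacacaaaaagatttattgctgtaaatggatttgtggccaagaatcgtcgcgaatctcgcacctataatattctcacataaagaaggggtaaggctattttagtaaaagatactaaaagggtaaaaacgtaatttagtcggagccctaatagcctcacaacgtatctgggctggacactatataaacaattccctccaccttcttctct
PRR9 has G-boxes that begin 244 and 172 bases before its start, and AT5G15950 has 1 that begins 265 bases before it. Of 27437 such upstream windows, 7.09% hold a G-box (7.79% of the 22638 windows of tested genes), as did 10.4% of the 164 windows of genes that rose both ways and 6.34% of the 284 of genes that fell both ways. The evening element (AAAATATCT), a motif of clock-controlled promoters, was in 6.71% of the risers' windows (11 windows), 3.52% of the fallers' (10) and 2.87% of those of tested genes. The CCA1-binding site (AAAAATCT) was in 10.4%, 5.28% and 7.88% in the same order. All motifs were sought on both strands. These shares are descriptions, with no test, and a match is not evidence of binding.

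Among the polyamine genes, a single synthesis gene rose and the oxidation genes moved both ways. AT5G15950, annotated as an adenosylmethionine decarboxylase and so an enzyme that makes the aminopropyl donor, stood at 46.7, 41.7 and 42.2 CPM on spermidine and 20.6, 16.1 and 19.9 CPM on mock medium. It was 2.31-fold higher without overlap (log2 fold change 1.21 with SE 0.14 and adjusted p 0.000601; 1.1 and 0.00406 without mock replicate 2; 1.01e-13 to 0.00598 over the alternatives). The other 13 genes of polyamine synthesis did not pass, and the median of the 14 was 0.03. The paralog SAMDC (AT3G02470) stood at 1460, 1320 and 1450 CPM on spermidine and 1570, 1600 and 1540 CPM on mock medium (log2 fold change -0.16, adjusted p 0.425), far above AT5G15950 in CPM, a scale that does not correct for gene length. The arginine decarboxylases ADC1 (AT2G16500) and ADC2 (AT4G34710), which begin putrescine synthesis, had log2 fold changes of 0.00 and 0.02, and the spermidine synthases SPDS1 (AT1G23820) and SPDS2 (AT1G70310) of 0.04 and 0.15, none of which passed (adjusted p 0.227 to 1).

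Of the polyamine oxidation list, 15 of 16 genes were tested, 2 rose, 1 fell and the median was 0.02, where 1.86% of all genes tested rose and 3.09% fell. PAO2 (AT2G43020), a peroxisomal polyamine oxidase that converts spermine and spermidine back towards putrescine, stood at 41.9, 41.5 and 36.9 CPM on spermidine and 22.8, 23.4 and 24.1 CPM on mock medium (log2 fold change 0.78 with SE 0.10 and adjusted p 0.000794, up to 0.0107 over the alternatives). CuAO1 (AT1G62810), a copper amine oxidase, went the other way, with 32.1, 28.5 and 30.7 CPM on spermidine against 45.1, 50.3 and 51.3 CPM on mock medium (log2 fold change -0.69 with SE 0.11 and adjusted p 0.00291, up to 0.0175). Both calls held without mock replicate 2. PAO5 (AT4G29720), an oxidase of thermospermine, stood at 26.7, 25.4 and 29.3 CPM on spermidine and 21.9, 20.1 and 20.1 CPM on mock medium (log2 fold change 0.39 with SE 0.09 and adjusted p 0.0184). Its call was lost without mock replicate 2 (0.0794) and in 3 other fits that leave out 1 library, those without mock replicate 3 and spermidine replicates 1 and 3 (up to 0.088). For all 3 genes the groups did not overlap, as they did not for 28.6% of all genes tested. The lists of polyamine transport and conjugation (9 of 11 genes tested), methionine salvage (10) and the methionine and S-adenosylmethionine cycle (18) had 0 genes called by edgeR with all libraries. At an unadjusted p under 0.05 they had 3, 2 and 2 genes, and DESeq2 called 2, both higher, in the first and 0 in the others. In the first, 2 genes also rose in edgeR on fragments, with DESeq2 size factors or with a mean of at least 50 counts, and with limma, and 1 rose with only the compared groups. Without mock replicate 1, 1 gene rose and 1 fell in the first list, 1 fell in methionine salvage and 1 rose in the methionine cycle.

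**Figure D2:**
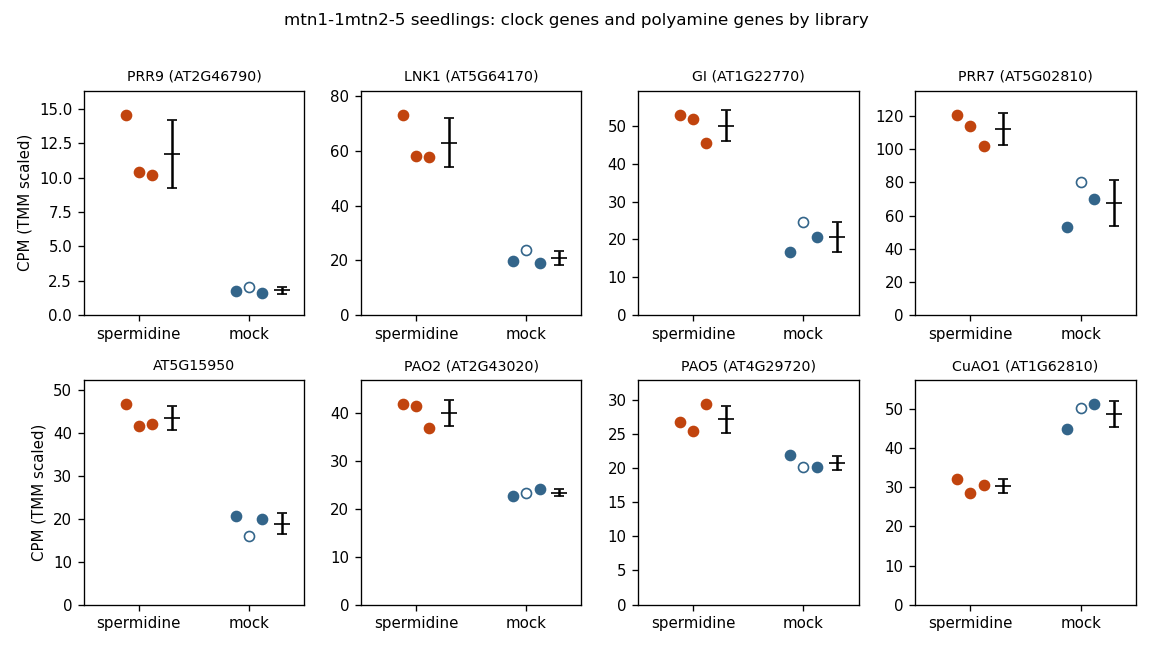
Levels of 4 clock genes (top) and 4 polyamine genes (bottom) in CPM, with 1 point per library, spermidine at the left and mock medium at the right of each panel, bars for mean and SD (n = 3), and mock replicate 2 as the open point. PRR9 lies between 10.2 and 14.6 CPM on spermidine against 1.58 to 2.06 CPM on mock medium, and CuAO1 is the only panel in which the spermidine libraries are the lower ones.

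Several genes of sulfate uptake and reduction fell. Of 13 sulfur starvation markers 4 fell and 0 rose, against falls in 3.09% of all genes tested (3 fell without mock replicate 2), with a median of -0.25 (-0.51 without that library). Of 18 genes of sulfate assimilation 4 fell and 0 rose (3 without that library), with a median of -0.11. APR3 (AT4G21990), an adenylylsulfate reductase at the committed step of sulfate reduction, stood at 87.7, 108 and 97.7 CPM on spermidine and 322, 202 and 231 CPM on mock medium (log2 fold change -1.36 with SE 0.17 and adjusted p 0.000743; -1.50 and 0.000886 without mock replicate 2; 1.28e-13 to 0.0252 over the alternatives). The groups did not overlap, and mock replicate 2 was the lowest of its group. APS3 (AT4G14680), an ATP sulfurylase, the enzyme that activates sulfate, stood at 33.8, 30.3 and 31.4 CPM on spermidine and 59.7, 64.3 and 75 CPM on mock medium (log2 fold change -1.06 with SE 0.12 and adjusted p 0.000276). SHM7 (AT1G36370), a serine hydroxymethyltransferase that rises when sulfate is scarce, stood at 51.7, 56.4 and 56.0 CPM on spermidine and 143, 113 and 120 CPM on mock medium (log2 fold change -1.20 with SE 0.21 and adjusted p 0.00519).

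The sulfate transporters had smaller values. SULTR2;2 (AT1G77990), a transporter of the vasculature, stood at 17.7, 16.0 and 17.1 CPM on spermidine and 31.3, 23.8 and 25.2 CPM on mock medium (log2 fold change -0.66 with SE 0.11 and adjusted p 0.00439). SULTR4;2 (AT3G12520), which releases sulfate from the vacuole, stood at 11.6, 9.59 and 8.68 CPM on spermidine and 16.1, 15.2 and 15.4 CPM on mock medium (log2 fold change -0.64 with SE 0.13 and adjusted p 0.0096, and 0.0525 without spermidine replicate 3). The calls of SULTR1;2 (AT1G78000), the main root uptake transporter (log2 fold change -0.71, adjusted p 0.0286), and of APS1 (AT3G22890, -0.37, 0.0362) were lost in each of the 6 fits that leave out 1 library (adjusted p up to 0.12 and 0.141). The call of APR1 (AT4G04610, -0.55, 0.0474) was lost in 5 of the 6, all but the one without mock replicate 2, and also with no filter on low counts (0.0506) and with only the compared groups (0.0715). SDI1 (AT5G48850), a repressor of glucosinolate synthesis used as a marker of sulfur deficiency, stood at 6.69, 10.9 and 8.88 CPM on spermidine and 19.7, 11.7 and 15.1 CPM on mock medium. It did not pass with edgeR (log2 fold change -0.81 with SE 0.30 and adjusted p 0.14), though it did with DESeq2 (0.0473, with up to 0.411 over the alternatives). By contrast DES1 (AT5G28030), a cysteine desulfhydrase that releases sulfide from cysteine, was among the 10 largest rises, at 3.72, 3.67 and 2.95 CPM on spermidine and 1.35, 1.31 and 0.86 CPM on mock medium (log2 fold change 1.55 with SE 0.26 and adjusted p 0.00387).

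**Figure D3:**
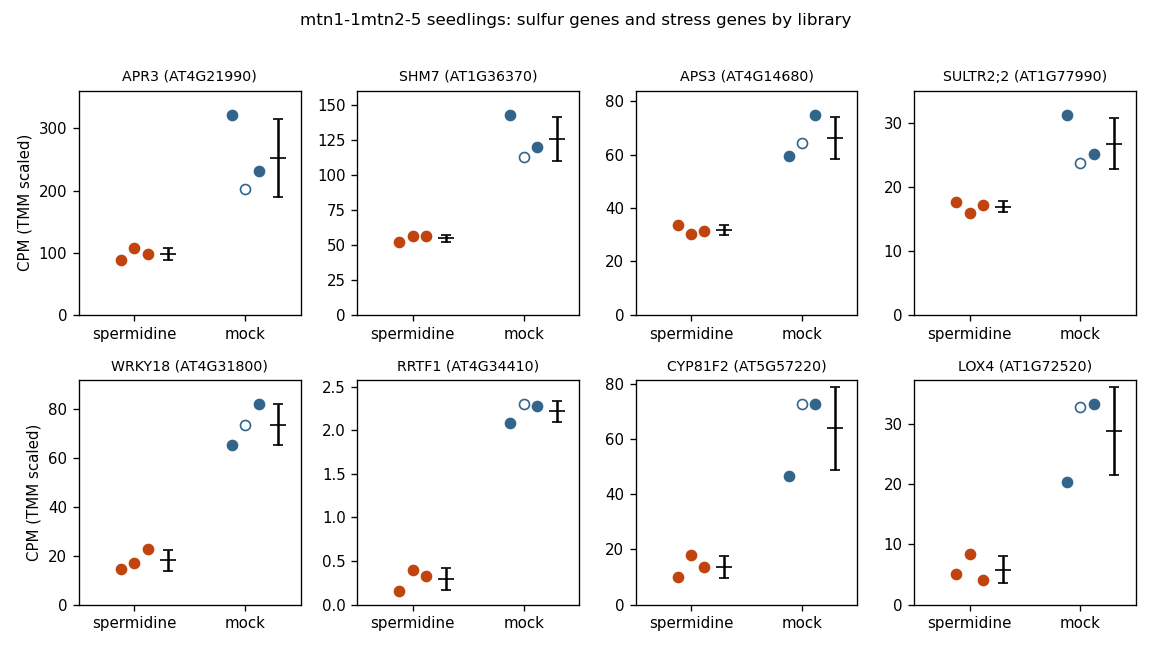
Levels of 4 sulfur genes (top) and 4 stress and defence genes (bottom) in CPM, with 1 point per library, spermidine at the left and mock medium at the right of each panel, bars for mean and SD (n = 3), and mock replicate 2 as the open point. In all 8 panels the 3 spermidine libraries lie below the 3 mock libraries, as for APR3 with 87.7 to 108 CPM on spermidine against 202 to 322 CPM on mock medium. The 8 genes were picked among called genes, and 28.6% of all genes tested had groups without overlap.

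Of 19 genes of the early elicitor, wound and touch response 5 fell and 0 rose, and 2 fell without mock replicate 2. Over all genes tested 3.09% fell, and 1.14% without that library. In this list the median was -0.56 and 18 of the 19 values were below 0. WRKY18 (AT4G31800), a transcription factor that tunes immune responses, stood at 14.5, 17 and 22.9 CPM on spermidine and 65.4, 73.7 and 82.1 CPM on mock medium. It was 4.06-fold lower without overlap (log2 fold change -2.02 with SE 0.31 and adjusted p 0.00246, up to 0.0193 over the alternatives). BIK1 (AT2G39660), a kinase that relays signals from immune receptors, stood at 20.9, 22.2 and 22.5 CPM on spermidine and 30.9, 32.1 and 33.7 CPM on mock medium (log2 fold change -0.56 with SE 0.10 and adjusted p 0.00479, up to 0.0348). The other 3 were PHI-1 (AT1G35140, log2 fold change -1.87, adjusted p 0.0339), WRKY40 (AT1G80840, -1.30, 0.038) and the calmodulin-like TCH3 (AT2G41100, -1.41, 0.039, named after its value was seen), whose calls were lost without mock replicate 2 (adjusted p 0.0977, 0.144 and 0.128) and in 4 further fits that leave out 1 library each, up to 0.156, 0.168 and 0.162. Of the fits that leave out 1 library, PHI-1 kept its call only without spermidine replicate 3, and WRKY40 and TCH3 only without mock replicate 1. With the replicate number as a block in edgeR, WRKY40 (adjusted p 0.061) and TCH3 (0.0619) also lost their calls.

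Of 19 genes of salicylic acid defence 6 fell and 0 rose, with a median of -0.42, where 3.09% of all genes tested fell. Without mock replicate 2, 2 of them fell, where 1.14% of all genes did. EDS1 (AT3G48090), a lipase-like hub of resistance signalling, stood at 23.9, 24.9 and 29.0 CPM on spermidine and 41.4, 44.3 and 43.8 CPM on mock medium (log2 fold change -0.73 with SE 0.11 and adjusted p 0.00276). PBS3 (AT5G13320), an enzyme of salicylic acid synthesis, stood at 2.98, 3.04 and 2.62 CPM on spermidine and 5.04, 7.78 and 6.65 CPM on mock medium (log2 fold change -1.17 with SE 0.18 and adjusted p 0.00246). The calls of these 2 held in every alternative. The others were CBP60G (AT5G26920, -1.05, 0.0156) and SARD1 (AT1G73805, -1.1, 0.0358), transcription factors that switch on salicylic acid synthesis, NPR1 (AT1G64280, -0.33, 0.0346), a salicylic acid receptor, and SAG101 (AT5G14930, -0.42, 0.049), a partner of EDS1, with log2 fold change and adjusted p in brackets. The calls of these 4 were lost without mock replicate 2 (0.0807, 0.119, 0.143 and 0.159), and also without spermidine replicates 1 and 2 for all 4. NPR1, SARD1 and SAG101 lost theirs without mock replicate 3 and spermidine replicate 3 too, and SARD1 also without mock replicate 1, with adjusted p of up to 0.0919, 0.161, 0.143 and 0.159 in the order of naming. The call of SAG101 was also lost with limma (0.065), with DESeq2 size factors in edgeR (0.0517) and with no filter on low counts (0.0566). With the replicate block in edgeR, SAG101 (0.065), NPR1 (0.0544) and SARD1 (0.0546) lost theirs. SAG101 did so too with the block and only the compared groups (0.0641). SARD1 and SAG101 were named after their values were seen.

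In the jasmonate list 3 of 26 genes fell and 1 rose, with a median of -0.06, where 3.09% of all genes tested fell and 1.86% rose. The only call kept without mock replicate 2 was that of LOX4 (AT1G72520). This lipoxygenase of jasmonate synthesis stood at 5.00, 8.33 and 4.13 CPM on spermidine and 20.4, 32.9 and 33.3 CPM on mock medium, a level 4.96-fold lower (log2 fold change -2.31 with SE 0.30 and adjusted p 0.000875, up to 0.0111). JAZ7 (AT2G34600), a repressor of jasmonate signalling, and CYP94C1 (AT2G27690), which breaks the hormone down, fell (log2 fold change -1.54 and -1.22, adjusted p 0.0192 and 0.0164), and the storage protein gene VSP1 (AT5G24780) rose (0.65, 0.0304). JAZ7 and CYP94C1 had an adjusted p of 0.0605 each without mock replicate 2 and VSP1 of 0.106. The call of VSP1 was lost in all 6 fits that leave out 1 library (up to 0.125), that of CYP94C1 also without spermidine replicates 1 and 3 (up to 0.0822) and that of JAZ7 without these and mock replicate 3 (up to 0.108). In the list of indolic glucosinolates and camalexin 2 of 15 genes fell and 1 rose, with a median of -0.32. CYP81F2 (AT5G57220), which modifies indolic glucosinolates used in defence, stood at 9.91, 17.8 and 13.5 CPM on spermidine and 46.6, 72.6 and 72.6 CPM on mock medium, a level 4.65-fold lower (log2 fold change -2.22 with SE 0.29 and adjusted p 0.000875, up to 0.00893). MYB34 (AT5G60890), an activator of indolic glucosinolate synthesis, stood at 31.0, 26.8 and 27.7 CPM on spermidine and 20, 19.1 and 19.0 CPM on mock medium (log2 fold change 0.56 with SE 0.10 and adjusted p 0.00735, and 0.0506 without spermidine replicate 1). The synthesis gene CYP79B3 (AT2G22330), by contrast, fell (-0.54, 0.0283, and 0.0922 without mock replicate 2, up to 0.121 without mock replicate 3 or spermidine replicates 2 or 3).

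Kinases and regulators of the same kind, named after their values were seen, fell both ways, among them MPK11 (AT1G01560, a mitogen-activated protein kinase, log2 fold change -2.09, adjusted p 0.00403), CPK28 (AT5G66210, a calcium-dependent kinase, -1.43, 0.00492), the receptor-like kinase gene CRK10 (AT4G23180, -1.66, 0.00333), WRKY15 (AT2G23320, -1.25, 0.00418) and the glutaredoxin gene GRX480 (AT1G28480, -1.63, 0.0104). The last lost its call without spermidine replicate 1 (0.0675).

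The windows upstream of the redox-responsive transcription factor gene RRTF1 (AT4G34410), the phloem lectin-like gene PP2-B14 (AT1G56250) and CYP81F2, all with large falls, are shown because each holds 2 copies of the W box core (TTGAC), the site read by WRKY factors. They are the 300 bases before the gene start (RefSeq, TAIR10.1), chr4:16451576-16451875 (plus strand), chr1:21063048-21063347 (minus strand) and chr5:23187540-23187839 (plus strand), printed 5′ to 3′ with the cores of either strand in capitals.
RRTF1: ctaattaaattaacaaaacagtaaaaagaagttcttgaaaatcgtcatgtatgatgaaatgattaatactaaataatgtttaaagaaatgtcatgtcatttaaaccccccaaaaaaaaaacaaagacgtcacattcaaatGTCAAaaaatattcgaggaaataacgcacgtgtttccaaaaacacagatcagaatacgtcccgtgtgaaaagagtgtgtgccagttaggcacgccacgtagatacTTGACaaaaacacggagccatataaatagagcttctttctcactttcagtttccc
PP2-B14: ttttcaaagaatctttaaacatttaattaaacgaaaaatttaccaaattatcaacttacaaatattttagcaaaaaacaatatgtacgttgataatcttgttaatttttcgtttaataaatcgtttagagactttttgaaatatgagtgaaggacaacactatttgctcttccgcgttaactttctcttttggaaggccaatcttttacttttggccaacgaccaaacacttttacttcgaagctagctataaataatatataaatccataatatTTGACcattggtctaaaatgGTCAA
CYP81F2: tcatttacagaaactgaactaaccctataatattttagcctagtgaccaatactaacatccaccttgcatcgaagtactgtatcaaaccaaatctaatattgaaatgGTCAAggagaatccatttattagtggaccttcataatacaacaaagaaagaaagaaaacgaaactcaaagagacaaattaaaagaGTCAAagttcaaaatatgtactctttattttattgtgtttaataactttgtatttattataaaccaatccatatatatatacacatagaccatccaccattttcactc
In RRTF1 the cores begin 160 and 55 bases before the start, in PP2-B14 25 and 5 bases and in CYP81F2 193 and 108 bases. RRTF1 also holds a G-box, 134 bases before its start, and AT5G15950 above also holds 1 W box core, 224 bases before its own. The core was in 62.7% of the windows of genes that fell both ways (178 of 284), 40.9% of those of genes that rose both ways (67 of 164) and 50.7% of those of tested genes. A core and a G-box shared a base in 126 of the 27437 windows. As above, these shares carry no test.

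The 10 largest falls by the naming rule, which asks for calls with and without mock replicate 2, groups that do not overlap and at least 50 counts in each library on the higher side, ran from a log2 fold change of -4.06 to -2.47. PP2-B14 (AT1G56250), a phloem lectin-like protein, stood at 0.164, 0.0654 and 0.104 CPM on spermidine and 1.44, 2.28 and 1.89 CPM on mock medium, a level 16.7-fold lower (log2 fold change -4.06 with SE 0.51 and adjusted p 0.000794). RRTF1 (AT4G34410), a redox-responsive transcription factor of the ERF family, stood at 0.157, 0.400 and 0.325 CPM on spermidine and 2.08, 2.30 and 2.28 CPM on mock medium (log2 fold change -2.91 with SE 0.42 and adjusted p 0.00174). WRR4 (AT1G56510), an immune receptor for white rust, was the most highly expressed of the 10, at 28.9, 27.7 and 39.7 CPM on spermidine and 182, 187 and 165 CPM on mock medium (log2 fold change -2.47 with SE 0.30 and adjusted p 0.00065). In each of these 3 every mock library lay far above every spermidine library. For PP2-B14 spermidine replicate 2 was under the level of 3 fragments (0.0726 CPM) and the other spermidine values were near it. Its fold change is therefore uncertain. The other 7 were AT5G56960 (a basic helix-loop-helix protein, -3.75), AT1G56060 (a small cysteine-rich transmembrane protein, -3.47), PP2-A5 (AT1G65390, of the phloem lectin family, -3.20), TDR1 (AT3G23230, an integrase-type DNA-binding protein, -3.11), AT3G02840 (an ARM repeat protein, -3.06), AT1G05675 (a UDP-glycosyltransferase, -2.96) and AT2G23270 (uncharacterised, -2.83), with log2 fold changes in brackets and adjusted p of 0.000794 to 0.0102. AT2G23270 lost its call without spermidine replicate 1 (0.0655) and without spermidine replicate 3 (0.0504).

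The 10 largest rises included PRR9, BBX29, BBX18, LNK1 and DES1, given above. The first of them by fitted value, AT1G27580, annotated as an F-box protein, rested on 2 libraries, at 0.428, 81.0 and 78.8 CPM on spermidine and 0.0269, 0.0198 and 0.014 CPM on mock medium. All mock libraries were at or under 3 fragments, so against that floor the spermidine mean was at least 790-fold higher (adjusted p 0.00134), while spermidine replicate 1 lay far below the other 2. TPPI (AT5G10100), a phosphatase that makes trehalose, stood at 10.5, 11.7 and 10.4 CPM on spermidine and 3.17, 3.59 and 3.85 CPM on mock medium (log2 fold change 1.62 with SE 0.16 and adjusted p 0.000161). AT5G04120, of the phosphoglycerate mutase family, stood at 17.1, 14.0 and 15.6 CPM on spermidine and 4.67, 5.15 and 4.16 CPM on mock medium (log2 fold change 1.74 with SE 0.33 and adjusted p 0.00807). The 2 others were AT2G29165, which is uncharacterised (log2 fold change 2.64, adjusted p 0.000875), and AT2G46670, of the CCT motif family (1.97, 0.00313). Of the 51-base words in AT2G46670, 89.7% occur more than once in the genome, as do 68.0% of those in AT1G27580, 65.7% in AT2G29165, 31.2% in PRR9, 16.8% in SULTR2;2, 6.99% in WRKY40 and 5.97% in TCH3, so their reads may have been assigned to a copy and their levels are uncertain. Named after their values were seen, NCED4 (AT4G19170), an enzyme that cleaves carotenoids, rose 1.03 on the log2 scale (adjusted p 0.000743), the phosphate sensor gene SPX1 (AT5G20150) 1.44 (0.014, with an adjusted p of up to 0.0585 in 3 of the fits that leave out 1 library, those without mock replicate 3 and spermidine replicates 2 and 3) and GA3OX2 (AT1G80340), an enzyme of gibberellin synthesis, 1.1 (0.00571).

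The remaining lists had fewer calls. Over all 33 lists 460 of 477 genes were tested, 18 rose and 36 fell, 11.7% against 4.95% of all genes, and without mock replicate 2 the counts were 10 and 16. As the lists were chosen with earlier results of these data known, the higher share is no test of enrichment. The count of 54 was 22 without spermidine replicate 1, 35 without spermidine replicate 2, 27 without spermidine replicate 3 and 29 without mock replicate 3. In the ethylene list (24 of 25 tested, median -0.01) 2 passed, 1 in each direction. ACS7 (AT4G26200), an ACC synthase, fell (log2 fold change -1.67, adjusted p 0.028, and 0.0605 without mock replicate 2). Of the fits that leave out 1 library, its call was kept only in the one without mock replicate 1 (adjusted p up to 0.114 in the others). In the list of oxidative and mitochondrial stress 3 of 22 fell and 0 rose, namely CYP81D8 (AT4G37370, a cytochrome P450 of detoxification), AOX1D (AT1G32350, an alternative oxidase) and RBOHD (AT5G47910, the NADPH oxidase of the oxidative burst). CYP81D8 stood at 3.60, 5.41 and 4.27 CPM on spermidine and 16.6, 17 and 16.9 CPM on mock medium (log2 fold change -1.93 with SE 0.27 and adjusted p 0.0015), and only its call was kept without mock replicate 2 (0.00672, against 0.0693 for AOX1D and 0.126 for RBOHD, which kept theirs only without mock replicate 1, with up to 0.0866 and 0.136).

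In the list of sugar starvation and senescence 2 of 10 fell, SAG21 (AT4G02380, a senescence-associated gene, at 113, 168 and 118 CPM on spermidine and 277, 283 and 270 CPM on mock medium, log2 fold change -1.06 with SE 0.20 and adjusted p 0.00864, and 0.0583 without spermidine replicate 1) and SRG2 (AT3G60140, a glycosyl hydrolase, -1.07, 0.0235, and 0.119 without mock replicate 2, up to 0.123 without mock replicate 3 or spermidine replicates 1 or 3). HRS1 (AT1G13300), a regulator of root responses to nitrate and phosphate, was the 1 of 24 nitrogen genes that fell (-0.60, 0.0191, and up to 0.101 without mock replicate 1 or spermidine replicates 1 or 3). MYB12 (AT2G47460), an activator of flavonol synthesis, was the 1 of 19 flavonoid genes that rose, at 8.72, 8.99 and 7.46 CPM on spermidine and 4.48, 4.33 and 4.42 CPM on mock medium (log2 fold change 0.93 with SE 0.18 and adjusted p 0.0082, and 0.0387 without mock replicate 2). The flavonoid list itself had a median of 0.19. For comparison with these lists, 1.86% of all genes tested rose and 3.09% fell. Of 21 cold and abscisic acid genes ABI1 (AT4G26080), a phosphatase that damps abscisic acid signalling, and RD22 (AT5G25610), a drought-responsive gene, rose (0.43 and 0.47, adjusted p 0.0165 and 0.0364). Both calls depended on single libraries, with adjusted p of up to 0.0711 for ABI1, lost without mock replicates 1 or 3 or spermidine replicates 2 or 3, and 0.142 for RD22, kept only where mock replicate 1 was left out. PYE (AT3G47640), a regulator of iron deficiency responses, was the 1 of 27 iron genes that rose (1.1, 0.00986, and 0.0515 without mock replicate 2), and 25 of the 27 values were above 0 with a median of 0.29.

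Calls in 3 further lists were each lost without mock replicate 2. With all libraries, 1.86% of all genes tested rose and 3.09% fell. HSP101 (AT1G74310) and HSP90.1 (AT5G52640), heat shock chaperones, rose (0.47 and 0.73, adjusted p 0.036 and 0.0317, and 0.15 and 0.141 without that library) and the unfolded-protein regulator BZIP60 (AT1G42990) fell (-0.56, 0.0274, and 0.11) among 14 tested genes of heat shock and protein folding. The auxin-conjugating enzymes GH3.3 (AT2G23170) and GH3.5 (AT4G27260) fell (-0.86 and -0.73, adjusted p 0.0228 and 0.013, and 0.0583 and 0.0664) among 14 genes of auxin and cytokinin response. AT5G38710 fell (-0.52, 0.0217, and 0.102) among 8 genes of GABA and proline metabolism. These 6 calls were lost in 3 to 6 of the fits that leave out 1 library, always including that without spermidine replicate 1, with adjusted p of up to 0.15. The lists of aliphatic glucosinolate synthesis (16 genes), photosynthesis (24), thermospermine and xylem (10) and the cell cycle (8) had 0 calls by edgeR. At an unadjusted p under 0.05 they had 2, 0, 2 and 0 genes, and DESeq2 called 1 higher and 1 lower in the first and 0 in the other 3. Photosynthesis genes summed to 82700 to 95600 CPM on spermidine and 83400 to 95600 CPM on mock medium.

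The marker lists bear on tissue make-up. Of 38 markers 29 were tested, 2 rose and 0 fell (6.9% called, against 4.95% of all genes tested), and neither call was kept without mock replicate 2. These were FAMA (AT3G24140), which ends guard cell divisions (0.37, adjusted p 0.0096, and 0.0571 without that library), and ATML1 (AT4G21750), which marks the epidermis (0.27, 0.0204, and 0.055). FAMA lost its call also without spermidine replicate 1 (0.0557), and ATML1 kept its call only without spermidine replicate 3 (up to 0.0999). The summed stomatal markers stood at 59.1 to 61.6 CPM on spermidine and 48.4 to 54.6 CPM on mock medium, and the epidermal and trichome markers at 109 to 114 CPM on spermidine and 95.5 to 98.3 CPM on mock medium, without overlap in either. Single markers did not all move alike, with log2 fold changes above 0 for 3 of 5 stomatal and 2 of 3 epidermal and trichome markers. The sums weigh the most highly expressed members most. Root markers summed to 3320 to 3920 CPM on spermidine and 3740 to 3930 CPM on mock medium, phloem markers to 238 to 262 and 253 to 273 CPM in the same order, and flower markers to 4.48 to 5.24 and 4.05 to 4.96 CPM. Seed and embryo markers were near 0, with CRU3, SESA3 and LEC1 at 0 in all 6 libraries, and of the shoot meristem markers WUS and CLV3 were at 0. The part of these shifts in the results above was not tested.

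**Figure D4:**
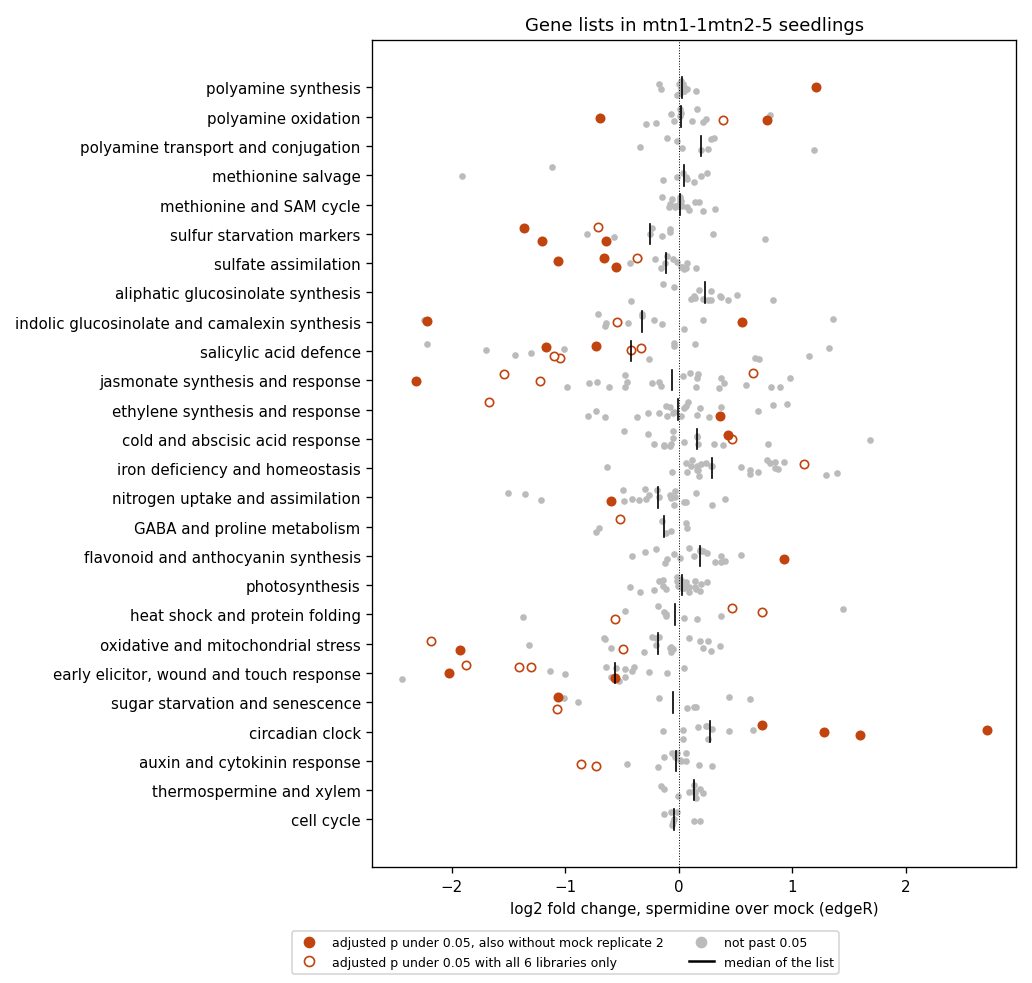
Log2 fold changes (spermidine over mock medium) of every tested gene in the 26 lists that hold no cell type markers, 1 row per list with the median as a bar. Filled red points passed an adjusted p of 0.05 with and without mock replicate 2, open red points with all 6 libraries only, and grey points did not pass. The clock row has 4 filled points at the right, at 0.73 to 2.71. The rows of sulfur and defence genes have theirs at the left, except for MYB34, at the right of the indolic glucosinolate row.

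The same medium was compared within mtn1-1mtn2-1 and within WT, with no library shared between the genotypes. In mtn1-1mtn2-1 edgeR called 0 genes (0.0%), with 1741 at an unadjusted p under 0.05 and 112 called by DESeq2. Without 1 of its own libraries edgeR called 34 (spermidine replicate 3), 2 (spermidine replicate 2 or mock replicate 3) or 1 (spermidine replicate 1). In WT it called 2334 genes (9.26%), 790 higher (3.13%) and 1544 lower (6.13%). With limma the more frequent direction in WT was the other one, with 1564 of 2957 called genes higher. The 790 became 1282 with DESeq2, 398 with only the compared groups, 416 without WT mock replicate 2, and 476 and 451 without WT spermidine replicates 1 and 2. Of the 1248 genes called in mtn1-1mtn2-5, 591 were called in the same direction in WT, which is 47.4% of the calls in mtn1-1mtn2-5 and 25.3% of those in WT, and 21 in the opposite direction. Of the 464 genes called both ways, 280 (60.3%) were called in the same direction in WT. The 469 genes that rose in mtn1-1mtn2-5 had a median of 0.251 in WT (408 above 0) and -0.0163 in mtn1-1mtn2-1 (217 above 0). The 779 that fell had a median of -0.439 in WT (690 below 0) and 0.0247 in mtn1-1mtn2-1 (342 below 0).

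The difference of the response from that in mtn1-1mtn2-1 was tested as an interaction, which edgeR called for 284 genes (1.13%), 104 higher (0.413%) and 180 lower (0.714%) in mtn1-1mtn2-5. Of these 284, 265 were also called in mtn1-1mtn2-5, 92 as rises among the 104 and 173 as falls among the 180. The interaction holds the same mtn1-1mtn2-5 libraries as that call, so this overlap is largely built in and is no separate support. The count was 933 with DESeq2, 161 with only the compared groups and 49 with these and the replicate block. Without mtn1-1mtn2-1 spermidine replicate 3 it was 894. It was 97 without mtn1-1mtn2-5 spermidine replicate 1, 157 without its replicate 2, 140 without its replicate 3, 132 without mtn1-1mtn2-5 mock replicate 2 and 109 without its replicate 3. Without mtn1-1mtn2-1 mock replicate 1 it was 101, and without mtn1-1mtn2-1 spermidine replicates 1 and 2 it was 140 and 134. All 4 clock genes that rose in mtn1-1mtn2-5 were among the called genes. For them genotype, medium and the hour of collection cannot be told apart.

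The 5 with the smallest p were CDF3, BBX29, PRR9, AT5G03230 and RRTF1 (adjusted p 0.000765 each). PRR9 had an effect of 2.71 in mtn1-1mtn2-5 and -0.65 in mtn1-1mtn2-1, where it stood at 5.15, 5.44 and 7.46 CPM on spermidine and 11.1, 5.95 and 11.1 CPM on mock medium (difference 3.35, SE 0.36). RRTF1 had effects of -2.91 and 2.41, with 1.47, 3.33 and 2.36 CPM on spermidine and 0.289, 0.481 and 0.578 CPM on mock medium in mtn1-1mtn2-1 (difference -5.32, SE 0.59), although the rise in mtn1-1mtn2-1 did not itself pass (adjusted p 0.0953). CDF3 differed by 1.71 (SE 0.17), BBX29 by 2.43 (SE 0.25) and AT5G03230, a gene annotated as a senescence regulator, by 1.15 (SE 0.13), and all 5 passed in every alternative tried. Of the genes described above, AT5G15950, PAO2, APR3, APS3, SHM7, SULTR2;2, WRKY18, EDS1, LOX4, JAZ7, CYP81F2 and CYP81D8 also passed this test. They were named for their values in the same mtn1-1mtn2-5 libraries, so this is no separate support for their calls. For APR3 the mtn1-1mtn2-1 libraries stood at 207, 228 and 184 CPM on spermidine and 165, 225 and 160 CPM on mock medium, which overlapped.

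The difference from WT was called for 307 genes (1.22%), 251 higher (0.996%) and 56 lower (0.222%) in mtn1-1mtn2-5, and for 197 without mtn1-1mtn2-5 spermidine replicate 3 (166 higher and 31 lower). The 56 became 96 with limma, 116 with only the compared groups and 244 with DESeq2. Where 1 mtn1-1mtn2-5 library was left out it was 93 without mock replicate 1, 31 without mock replicate 2, 30 without mock replicate 3, 34 without spermidine replicate 1 and 37 without spermidine replicate 2. Without WT mock replicates 1 and 2 and WT spermidine replicate 1 it was 34, 30 and 28. Of the 307, 63 were called in mtn1-1mtn2-5 and 261 in WT, calls that share their libraries with this test. Of the 251, 233 fell in WT and 32 rose in mtn1-1mtn2-5, and of the 56, 27 fell in mtn1-1mtn2-5. None of the clock genes passed. PRR9 stood at 22.4, 27.5 and 16.4 CPM on spermidine and 2.49, 1.83 and 2.52 CPM on mock medium in WT, and its difference was -0.57 (SE 0.35, adjusted p 0.649). The sulfur genes APR3 (0.22, SE 0.23, adjusted p 0.841), APS3 (-0.19, SE 0.16, 0.785) and SHM7 (adjusted p 0.417) did not pass either, which does not show that the genotypes respond alike. Of the 13 sulfur starvation markers 1 was called higher in mtn1-1mtn2-5, and 11 of the 13 differences were above 0 (median 0.66). This list had a median of -0.25 with 4 falls in mtn1-1mtn2-5, against -1.11 with 7 falls in WT. In sulfate assimilation 0 of 18 genes were called, with a median difference of -0.04.

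Of the 5 genes with the smallest p in this test, none fell in mtn1-1mtn2-5 and all fell in WT. RAV1 (AT1G13260), a transcription factor of growth and senescence, stood at 146, 158 and 177 CPM on spermidine and 75.5 to 92.2 CPM on mock medium in mtn1-1mtn2-5 (log2 fold change 0.90 with SE 0.16 and adjusted p 0.00499). In WT it stood at 28.6, 29.7 and 36.3 CPM on spermidine and 91.5, 120 and 145 CPM on mock medium (-1.92, SE 0.16, 5.69e-06). AT1G80440, a kelch repeat protein, stood at 167, 169 and 185 CPM on spermidine and 106, 158 and 131 CPM on mock medium in mtn1-1mtn2-5 (0.40, SE 0.16, 0.192). In WT it stood at 21.2, 25.1 and 20.3 CPM on spermidine and 124, 137 and 168 CPM on mock medium (-2.69, SE 0.17, 8.85e-07). The mock ranges of the 2 genotypes overlapped for both genes, and the spermidine ranges did not. AT3G18773, of the RING/U-box family, and BEE3 (AT1G73830), a growth-promoting helix-loop-helix protein, rose in mtn1-1mtn2-5 (1.14 and 0.66, adjusted p 0.000212 and 0.0154) and fell in WT (-1.26 and -1.75, adjusted p 1.69e-05 and 5.34e-06). AT5G21940 was at 0.35 in mtn1-1mtn2-5 (adjusted p 0.188) and fell by 2.06 on the log2 scale in WT (2.03e-06). The 5 interactions had adjusted p of 1.03e-05 to 1.79e-05.

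Among the lists, those of early stress and of ethylene had the most calls of this kind. Of the 19 early elicitor, wound and touch genes, 5 fell in mtn1-1mtn2-5 and 13 fell in WT. The interaction was called for 5 of them, all higher in mtn1-1mtn2-5. Of the 24 ethylene genes tested, 1 fell in mtn1-1mtn2-5 and 10 fell in WT, and the interaction was called for 5, again all higher. Over all genes tested 3.09% fell in mtn1-1mtn2-5, 6.13% fell in WT and 0.996% were called higher by the interaction. Named after their values were seen, ACS6 (AT4G11280), an ACC synthase of stress ethylene, stood at 52.4, 66.2 and 69.9 CPM on spermidine and 30.9, 33.4 and 33.4 CPM on mock medium in mtn1-1mtn2-5 (0.95, SE 0.29, adjusted p 0.0778). In WT it had 13.7, 9.96 and 16.1 CPM on spermidine and 32.2, 55.2 and 55.2 CPM on mock medium (-1.84, SE 0.30, 0.00094), which makes a difference of 2.79 (SE 0.42, 0.00246). WRKY70 (AT3G56400), a transcription factor of salicylic acid responses, differed by 2.86 (SE 0.34, 0.000385), and SZF1 (AT3G55980), a zinc finger gene of early stress responses, by 2.98 (SE 0.47, 0.00353). These differences held in every alternative. Among the genes with a lower value in mtn1-1mtn2-5 by the interaction test were CuAO1 (difference -0.80, SE 0.15, 0.0133), AT5G56960 (-4.80, SE 0.88, 0.0109) and AT2G23270 (-3.38, SE 0.76, 0.0422). The effect on TPPI was higher than in WT (1.28, SE 0.23, 0.0082).

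**Figure D5:**
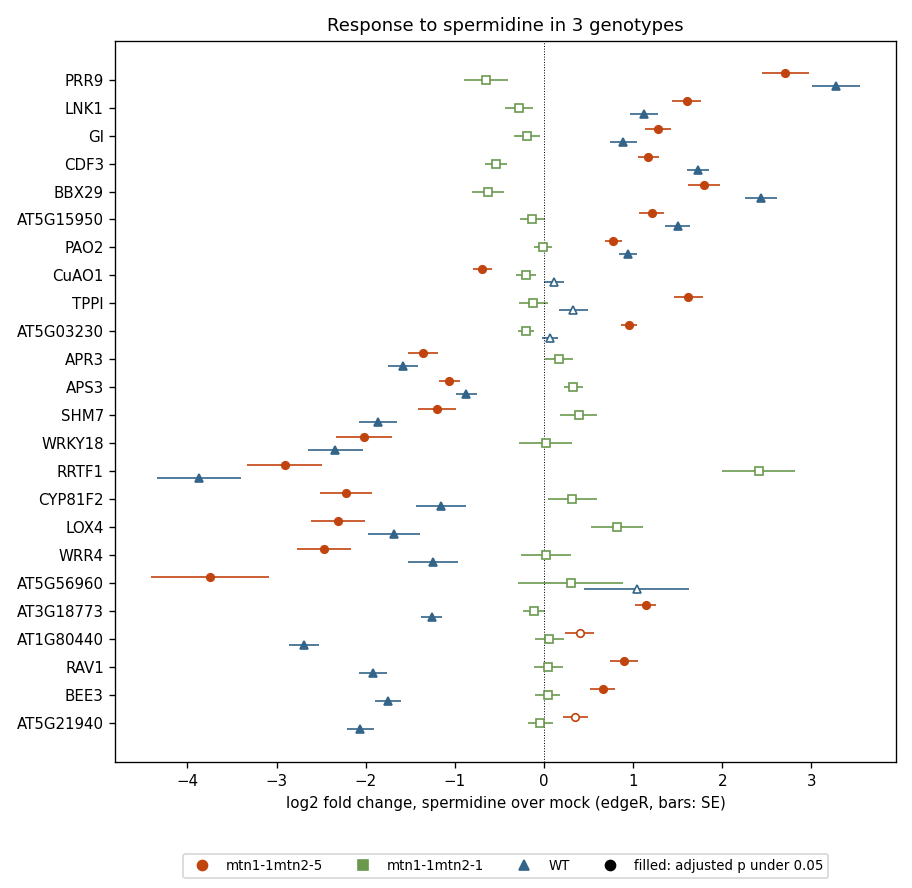
Log2 fold changes (spermidine over mock medium) of 24 genes in mtn1-1mtn2-5 (circles), mtn1-1mtn2-1 (squares) and WT (triangles), with SE as bars and filled symbols where the edgeR adjusted p was under 0.05. The mtn1-1mtn2-1 symbols are all open, PRR9 stands at 2.71 in mtn1-1mtn2-5 and 3.28 in WT, and the lowest 5 genes lie above 0 in mtn1-1mtn2-5 and below 0 in WT.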

How the data were processed

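Per the labels' protocols, RNA came from pooled ground seedlings and libraries were enriched for polyadenylated RNA. The submitters' processing notes name Trim Galore, STAR, StringTie and the build TAIR10, with no versions, parameters or roles, and the counting method and strand setting are not given in the sources used here. Reads of overlapping or antisense genes can therefore not be told apart. The authors deposited expected counts per gene, as whole numbers not scaled to a common total, and a table of TPM computed by the authors, used here for 1 alternative only. The strongest regular spacing among low counts was 3.33 units, so that step was read as 1 fragment, and a floor of 3 fragments came to 9.99 counts. Of the low values 63.4% were whole numbers next to a multiple of it. Such neighbours cover most low whole numbers, so this share does not show that counts gather there. The reading as fragments is therefore an assumption. PCR copies are not separate molecules, so floors cover counting error only.

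All 18 seedling libraries were fitted in 1 model of 6 groups with edgeR 4.0.16 in R 4.3.3 (filterByExpr by group, TMM scaling, quasi-likelihood F test, Benjamini-Hochberg adjustment over all genes tested in a comparison). A gene was called at an adjusted p under 0.05. Interactions were tested in the same model. CPM used TMM-scaled totals. A prior count of 2 entered only the log CPM in the check of replicate numbers, and the fitted log2 fold changes kept the default of edgeR. DESeq2 1.42.0 and limma 3.58.1 on log2(TPM + 1) served as alternatives, beside the replicate block, other filters and leaving out each library. Samples were grouped by the labels alone. On simulated counts of the same design 150 of 200 genes changed 2-fold were recovered with 5 false calls (3.23%) among 24852 genes. The simulation drew each gene independently, held no library like mock replicate 2 and changed only genes with a mean of at least 50 counts. Its share of false calls therefore does not describe the real data.

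The genes and gene lists were chosen with earlier results of these data known, so their counts are descriptions. Genes named are MTN1 and MTN2, the 10 largest rises and falls called with and without mock replicate 2 whose groups do not overlap and whose higher group has at least 50 counts in each library, up to 4 called genes per list and direction with the smallest p, and the 5 with the smallest p in each interaction. A called gene that this rule names is not reported here. Others are said to be named after their values were seen. Symbols and sequences are from RefSeq (TAIR10.1), and promoter windows are upstream of the annotated gene, with no coordinate taken from the deposited tables. Libraries of buds were not used here.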

Additional observations from a re-analysis of the deposited data

Results flagged for a closer look

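All values here are differences of 2 log2 fold changes, the spermidine effect in mtn1-1mtn2-5 minus that in another genotype, for named genes whose interaction passed an edgeR adjusted p of 0.05. Named genes are listed here where this difference itself passed the test. Many had been named for their values in the same mtn1-1mtn2-5 libraries, which the difference also holds. It is therefore no separate support for their calls. The causes of the differences were not tested.

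Against mtn1-1mtn2-1, the clock and light genes had the higher effect in mtn1-1mtn2-5, by 3.35 for PRR9, 2.43 for BBX29, 1.97 for BBX18, 1.88 for LNK1, 1.71 for CDF3, 1.47 for GI and 1.09 for PRR7. The mock levels also differed for GI, at 44.6, 41.1 and 45.4 CPM in mtn1-1mtn2-1 and 16.7, 24.6 and 20.5 CPM in mtn1-1mtn2-5. On spermidine GI averaged 38.3 and 50.1 CPM in the same order. The hour of collection is not given and cannot be told apart from genotype and medium. The polyamine genes AT5G15950 and PAO2 were higher by 1.34 and 0.78, and DES1 by 1.83, TPPI by 1.74, AT2G46670 by 2.87, AT2G29165 by 2.72, AT3G18773 by 1.24 and AT5G03230 by 1.15. The sulfur genes differed by -1.53 for APR3, -1.58 for SHM7, -1.39 for APS3 and -0.80 for SULTR2;2. Among the stress and defence genes the differences were -5.32 for RRTF1, -3.13 for LOX4, -2.82 for JAZ7, -2.54 for CYP81F2, -2.50 for WRR4, -2.04 for WRKY18, -1.99 for CYP81D8 and -0.81 for EDS1. Of the other large falls, PP2-B14 and AT5G56960 differed by -4.05 each, PP2-A5 by -3.66, AT2G23270 by -3.57, AT1G05675 by -3.54, AT3G02840 by -3.51 and AT1G56060 by -2.56.

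Against WT, AT1G80440 differed by 3.09, SZF1 by 2.98, WRKY70 by 2.86, RAV1 by 2.81, ACS6 by 2.79, BEE3 and AT5G21940 by 2.41 each, AT3G18773 by 2.39, TPPI by 1.28 and AT5G03230 by 0.88. The fitted difference of 12.84 for AT1G27580 rests on 2 of the 3 spermidine libraries, and all WT libraries were at or under 0.11 CPM, so it is no bound. Lower effects in mtn1-1mtn2-5 were found for AT5G56960 (-4.80), AT2G23270 (-3.38), SRG2 (-1.61), GH3.3 (-1.21) and CuAO1 (-0.80).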

How the results depend on the processing

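The count of genes changed in mtn1-1mtn2-5 was 1248, against 2254 with DESeq2, 1907 where the model held the 2 compared groups alone, and 338 to 1285 where 1 library was left out. In mtn1-1mtn2-1 the count of 0 became 19 on fragments, 112 with DESeq2, 35 with limma, 1 with only the compared groups, 1 with these and the replicate block, and 0 to 34 where 1 library was left out. The WT count of 2334 became 812 with the block and only the compared groups. Differences from WT (307) numbered 739 with DESeq2 and 197 to 305 where 1 library was left out, and differences from mtn1-1mtn2-1 (284) 933 with DESeq2, 161 with only the compared groups, 49 with these and the replicate block, and 97 to 894 where 1 library was left out. Calls in the gene lists (54) numbered 90 with DESeq2, 84 with only the compared groups and 22 to 53 where 1 library was left out. The causes of these shifts were not tested. The alternatives not named for a count kept it within 1.5 times. Of 1694 comparisons of 108 named results with an alternative, 1505 kept direction and side of the threshold, 182 no longer passed, 6 newly passed and 1 reversed. The reversal was AT1G66100, at -6.63 with all libraries and 6.86 without mock replicate 2, within -7.21 to 6.86 where 1 library was left out. The 1694 comparisons include results that were not called. Of the 84 named genes called in mtn1-1mtn2-5, 44 were called under every alternative.

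In mtn1-1mtn2-5 the replicate number showed no sign of pairing. Deviations of spermidine and mock libraries with the same number correlated at -0.0182, 0.0119 and -0.0613, and those with different numbers at -0.0312 to 0.0581. This cannot exclude pairing, and the other genotypes were not checked. With the replicate number as a block the counts were 1018 in mtn1-1mtn2-5, 2054 in WT, 0 in mtn1-1mtn2-1, 271 and 214 for the differences from WT and mtn1-1mtn2-1, and 48 in the lists. In models of only the compared groups, adding the block moved the count from 1907 to 1377 in mtn1-1mtn2-5 and from 1605 to 812 in WT. Calls lost with the block included those of APR1 (edgeR adjusted p 0.0587), APS1 (0.05) and RD22 (0.0593). With the block and only the compared groups, PRR7 (0.0606), CYP79B3 (0.0938), GH3.3 (0.114), PAO5 (0.0517), HSP101 (0.0519), ATML1 (0.0629) and HRS1 (0.05) did not pass.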

Other observations

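The 93 genes found in WT and not in 5 of the 6 mtn1-1mtn2-5 libraries were unevenly placed, with 27 on chromosome 1, 18 on chromosome 2, 20 on chromosome 3, 28 on chromosome 4 and 0 on chromosome 5, which holds 22.8% of the genes tested. The 43 genes with the opposite pattern numbered 8, 13, 5, 12 and 5 on chromosomes 1 to 5. These counts were noticed in the data and carry no test.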
